A study of Homo sapiens with 4 samples.

Results

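The metallothionein genes are a family that lies mostly in a single cluster on human chromosome 16, and 8 of them, MT1A, MT1E, MT1F, MT1G, MT1H, MT1M, MT1X and MT2A, are described here. Probe sets were taken where the platform annotation gives one of these symbols as the single gene. This found 7 probe sets for 7 of the 8 genes, out of 17687 genes with a probe set, and no member had more than 1. MT1A had no probe set under its own symbol and was not analysed here. RNA was measured on a whole-transcript array in A549, an established human lung adenocarcinoma line. All samples carried a short hairpin RNA against LDOC1, a leucine zipper gene, and were grown with puromycin at 5 µg/mL in high-glucose medium with 10% serum to more than 90% confluency. Of the 4 arrays, 2 came from depleted cells with added H2BK120R, a mutant H2B in which arginine takes the place of the lysine that receives monoubiquitin. The other 2 came from LDOC1-depleted cells with the empty vector, which serve as the control. The submitters' design text states that depletion raised ubiquitylated H2B and that the mutant histone reduced it, so the comparison asks how transcripts differ when that mark is lowered. The arrays did not measure the mark.

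Neither group had intact LDOC1 or an added unmutated H2B, so the effect of the mutation and that of added histone cannot be told apart. The titles and descriptions name the mutant in full, while the shRNA label of the same samples writes it without its last letter. The labels do not say whether the replicates were separate cultures or whether a line was 1 clone, so the p-values measure only how these arrays differ, and that spread could be technical.

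Metallothioneins are small, cysteine-rich proteins that hold zinc, copper and cadmium ions in clusters of thiolates. Their genes are switched on when free zinc in the cell rises, through the zinc finger factor MTF1, which binds short metal response elements in their promoters. Glucocorticoids induce MT2A as well, and the proteins are known to buffer zinc and to protect cells, lung epithelium among them, from cadmium and oxidants.

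The promoters carry the switch by which the family answers zinc, and for 3 of the 8 genes the RefSeq promoter table (GRCh38.p14) held a sequence of 300 bases, from 250 before to 50 after the transcript start. They are shown because these response elements are the feature the family is known for, and they are the 3 members that the table held. Capitals mark each match to the core of the metal response element, searched as TGCACNC and as TGCGCNC on both strands. No matches overlapped one another. The 3 windows are chr16:56608334-56608633 for MT2A, chr16:56682220-56682519 for MT1X and chr16:56669564-56669863 for MT1H, all on the plus strand and written 5′ to 3′.
MT2A promoter: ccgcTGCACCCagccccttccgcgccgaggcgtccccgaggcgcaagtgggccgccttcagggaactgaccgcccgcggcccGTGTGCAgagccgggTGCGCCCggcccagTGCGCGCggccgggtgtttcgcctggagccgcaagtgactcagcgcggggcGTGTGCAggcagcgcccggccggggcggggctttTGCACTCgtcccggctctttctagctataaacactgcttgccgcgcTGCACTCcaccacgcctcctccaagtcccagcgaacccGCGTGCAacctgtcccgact
MT1X promoter: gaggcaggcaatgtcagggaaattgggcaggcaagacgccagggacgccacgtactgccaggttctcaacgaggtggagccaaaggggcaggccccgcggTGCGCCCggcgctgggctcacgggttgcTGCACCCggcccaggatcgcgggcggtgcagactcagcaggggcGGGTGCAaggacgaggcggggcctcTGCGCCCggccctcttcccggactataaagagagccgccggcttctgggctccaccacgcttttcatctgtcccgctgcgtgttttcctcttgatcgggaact
MT1H promoter: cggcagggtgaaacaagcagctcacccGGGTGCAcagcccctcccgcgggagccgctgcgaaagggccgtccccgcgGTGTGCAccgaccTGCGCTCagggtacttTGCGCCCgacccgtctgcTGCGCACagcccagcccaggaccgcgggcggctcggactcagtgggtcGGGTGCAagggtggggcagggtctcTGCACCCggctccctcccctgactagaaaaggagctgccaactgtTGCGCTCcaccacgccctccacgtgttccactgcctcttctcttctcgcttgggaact
MT2A and MT1H each held 8 matches, 5 on the strand of the gene and 3 on the other, and MT1X held 4, with 3 and 1. Of the 35116 promoters of this length in the table, 29.6% held at least 1 match, 0.601% at least 4 and 0.0199% at least 8. All 3 promoters had a match whose first base was at -54 in MT2A and at -53 in MT1X and MT1H. Just before the start site, from -8 to -2, MT2A and MT1H held a match and MT1X did not. MT1X and MT1H also shared a match beginning at -78 on the other strand. The TATA box letters TATAAA, searched on both strands, were in MT2A and MT1X and not in the window of MT1H, and 11.5% of all promoters held them. A match describes the letters and does not show that MTF1 binds there.

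Levels are log2 values as deposited. Array medians were between 6.40 and 6.43, and Pearson correlations across probe sets were between 0.990 and 0.994 for the 6 pairs of arrays. The array least like the others was vector replicate 1, with a mean correlation of 0.991, against 0.992 to 0.993 for the rest. LDOC1 averaged 8.52 ± 0.21 with H2BK120R and 8.17 ± 0.23 with vector (SD, n = 2 each). Both groups carry the hairpin, so this is no check of the depletion. All 5 epithelial markers lay above the range of silent genes defined below in both groups, with KRT8 at 17.17 ± 0.05 with H2BK120R and 17.13 ± 0.03 with vector (SD, n = 2 each) and EPCAM barely above it. So did the 4 aldo-keto reductases typical of A549. Among markers of other cell types, 1 of 3 measured for leukocytes, 1 of 3 for endothelium and 2 of 3 for fibroblasts lay above it in both groups, and PTPRC, PECAM1, CDH5 and LUM did not. All 3 neuronal markers lay above it, with group means between 9.23 and 11.45 with H2BK120R and between 8.93 and 11.12 with vector. Of the epithelial markers, CDH1 differed by 0.60 ± 0.15 and KRT19 by -0.48 ± 0.28, and the neuronal marker SNAP25 by 0.57 ± 0.24 (SE), with limma adjusted p-values of 0.650, 0.770 and 0.745. SNAP25 moved between 0.21 and 0.94 with 1 array left out. The part of these markers in the results was not tested.

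Probe sets differ in how strongly they bind, so levels are compared within a gene and not between genes. As a guide to which members were measured at all, each was set against 349 olfactory receptor genes, which are mostly silent outside the nose. Their median level was 3.45 and their 95th percentile 5.17. Of the 7 members, 6 lay above that percentile in both groups, and MT1E did not. The values of MT1E may therefore be background, and no detection calls were used here.

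None of the 7 metallothionein genes differed between the groups beyond the threshold of the test over the whole array. In limma, 0 of the 7 passed a Benjamini-Hochberg adjusted p of 0.05, and their adjusted p-values lay between 0.745 and 0.966. Over all 21448 probe sets 0% passed. In RNA from whole cultures, fewer cells expressing a gene and less RNA per cell cannot be told apart. The differences, as H2BK120R minus vector, ran from -0.26 to 0.15 with a median of -0.10, beside 0 over all probe sets. That median is the value of MT1E, the member within the range of the silent genes, and it was -0.0025 over the other 6. MT2A, MT1F, MT1X and MT1E were on the lower side, and MT1G, MT1H and MT1M on the higher side. At an unadjusted p under 0.05 there was 1 member, MT2A, against 6.7% of all probe sets. Both groups lay apart without overlap for 2 of the 7 members, MT2A and MT1X, against 36.5% of all probe sets. The smallest two-sided p that an exact permutation of 2 and 2 arrays allows for a single gene is 0.333.

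**Figure D1:**
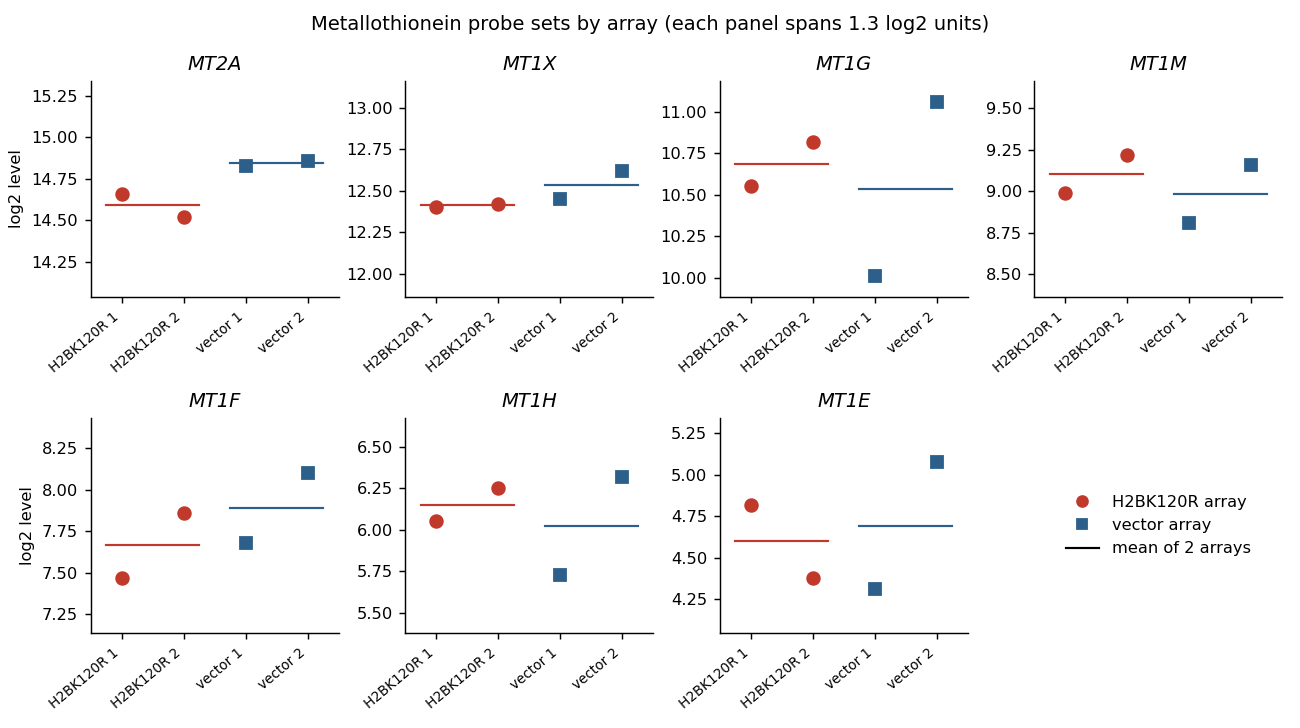
Log2 level of the 7 metallothionein probe sets on each array, H2BK120R (circles) left of vector (squares), with a line at the mean of the 2 arrays of a group; every panel spans the same range of log2 units. MT2A and MT1X show no overlap between the groups, while for MT1G, MT1H and MT1E both arrays with H2BK120R lie between the 2 vector arrays.

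MT2A encodes metallothionein 2, the main form in many human tissues and the member known to respond to both zinc and glucocorticoids. It was at 14.66 and 14.52 with H2BK120R and at 14.83 and 14.86 with vector. Both arrays with the mutant were thus below both vector arrays, and the vector arrays were close to each other. The difference was -0.26 ± 0.11 (SE), a change of -16.2%, with a 95% confidence interval from -0.49 to -0.02 on the log2 scale. Its limma p was 0.0372 unadjusted and 0.745 adjusted. The difference lay between -0.33 and -0.19 when each array in turn was left out, and the unadjusted p was no longer under 0.05 in any of these fits or without the variance trend.

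MT1X, a broadly expressed, metal-inducible member, showed the same order with a smaller gap. Its levels were 12.40 and 12.42 with H2BK120R and 12.45 and 12.62 with vector. The nearest arrays of the groups were only 0.03 apart on the log2 scale. The difference was -0.13 ± 0.13 (SE), with a limma adjusted p of 0.872 and a 95% confidence interval from -0.42 to 0.17. It was -0.21 without vector replicate 1 and -0.04 without vector replicate 2.

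MT1G is known for silencing by promoter methylation in several carcinomas. It was at 10.55 and 10.82 with H2BK120R and at 10.01 and 11.06 with vector. Both arrays with the mutant lay between the vector arrays, which were 1.05 apart, the widest gap of any member. The difference was 0.15 ± 0.28 (SE), with a limma adjusted p of 0.935. MT1H, whose promoter is shown above, had the same arrangement. Its levels were 6.05 and 6.25 with H2BK120R and 5.73 and 6.32 with vector, a difference of 0.13 ± 0.31 (SE) with a limma adjusted p of 0.949.

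MT1M and MT1F, metal-binding members reported as reduced in liver cancer, differed in sign. MT1M was at 8.99 and 9.22 with H2BK120R and at 8.81 and 9.16 with vector, and its ranges overlapped. MT1F was at 7.47 and 7.86 with H2BK120R and at 7.68 and 8.10 with vector, and its ranges overlapped as well. The differences were 0.12 ± 0.21 for MT1M and -0.23 ± 0.26 for MT1F (SE), with limma adjusted p-values of 0.928 and 0.886. With 1 array left out, MT1F lay between -0.44 without vector replicate 1 and -0.02 without vector replicate 2, and it was at -0.03 without H2BK120R replicate 1. MT1E, within the range of the silent genes, was at 4.82 and 4.38 with H2BK120R and at 4.31 and 5.08 with vector. Its difference of -0.10 ± 0.35 (SE) had a limma adjusted p of 0.966.

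The precision differed between members. The 95% confidence interval reached 0.24 to either side for MT2A and 0.78 for MT1E. A p above the threshold does not show that a gene was equal in the groups, and the interval of MT1G runs from -0.46 to 0.76 on the log2 scale.

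**Figure D2:**
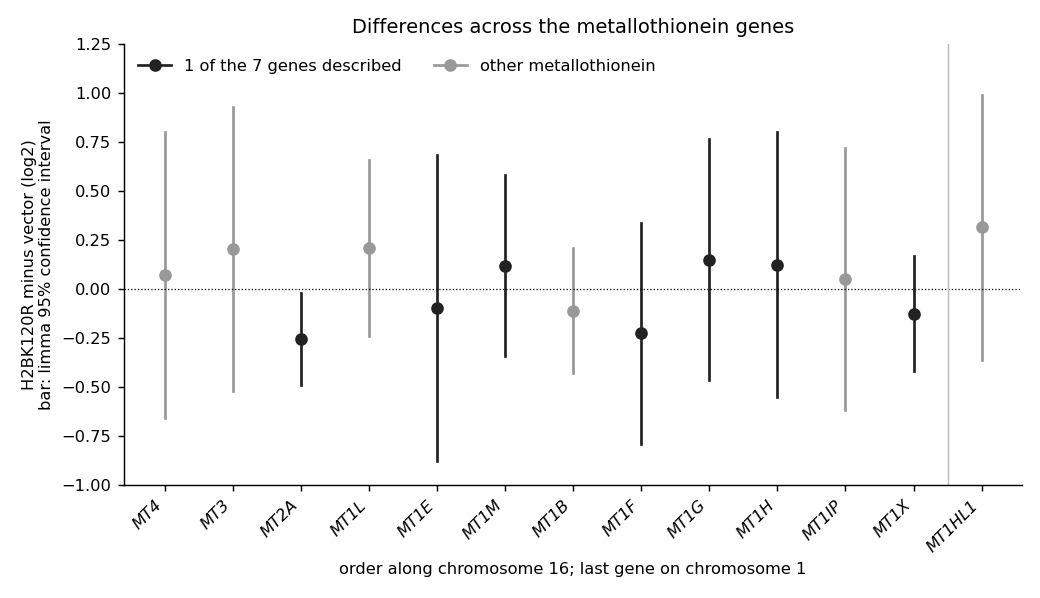
Difference between H2BK120R and vector in log2 units (points) with limma's 95% confidence interval (bars) for the 12 measured metallothionein genes of chromosome 16 in their order along the chromosome, and for MT1HL1 of chromosome 1 at the right; black marks the 7 genes described and grey the others. The interval of MT2A alone stays on one side of 0, and several neighbours in the cluster differ in sign.

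The larger feature of the family was a gap between the replicates of the vector group. Vector replicate 2 was above vector replicate 1 for 7 of the 7 members, with gaps from 0.03 in MT2A to 1.05 in MT1G and a median of 0.42. Over all probe sets the median of this gap was -0.01 with an SD of 0.46, and 48.6% were positive. Among all probe sets the gap ranked at percentile 54.2 for MT2A, 68.6 for MT1X and 98.9 for MT1G. The other members ranked between 82.7 (MT1M) and 96.4 (MT1E). For 6 of the 7 members, MT2A being the exception, the gap between the vector arrays was larger than the difference between the groups, as it was for 60.2% of all probe sets. Members were highest in vector replicate 2 in 6 cases, with MT1M the exception, and lowest in vector replicate 1 in 4. Over all probe sets, 22.1% were highest in vector replicate 2 and 28.8% lowest in vector replicate 1.

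Except in MT2A, where the gap was -0.14 against 0.03 in vector, the arrays with H2BK120R differed less. Replicate 2 was above replicate 1 for 5 of the 7 members and below it for MT2A and MT1E, with gaps from -0.44 to 0.39 and a median of 0.20. Over all probe sets the median of this gap was 0, and 49.7% were positive. The smaller gap was not particular to the members. Over all probe sets its SD was 0.382, against 0.46 for the gap between the vector arrays. Centred on each gene's mean over the 4 arrays, the median of the members was -0.06 and 0.08 in replicates 1 and 2 with H2BK120R, and -0.23 and 0.23 in vector replicates 1 and 2. The widest spread of these medians was thus between the vector arrays. These 7 values are not independent, since the genes share their inducer and their probes may read one another's transcripts.

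**Figure D3:**
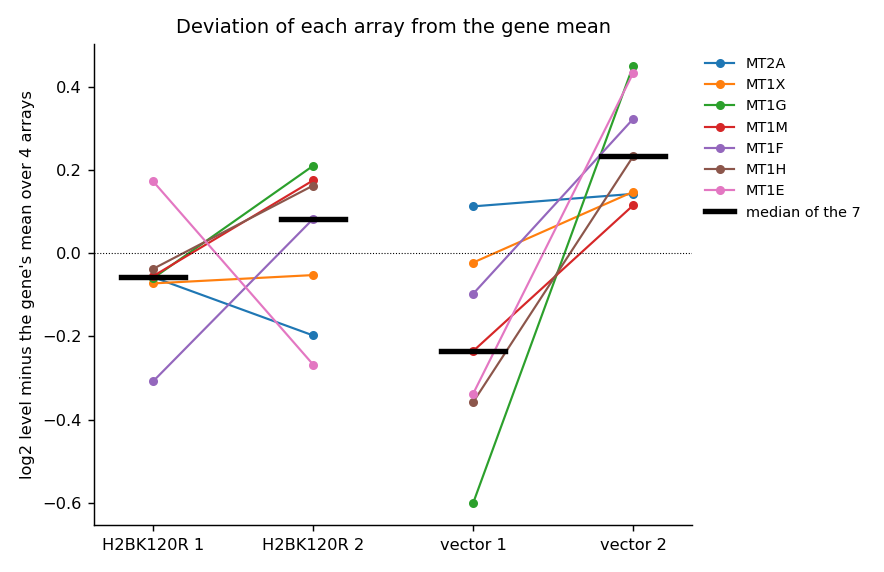
Deviation of each array from the gene's mean over the 4 arrays, in log2 units, for the 7 metallothionein genes (coloured lines join the 2 arrays of a group) and their median (black bars). Every line is higher in vector replicate 2 than in vector replicate 1, by 0.03 to 1.05, and the median bars with H2BK120R lie between those with vector.

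Because of this gap, the sign for MT1E, MT1G, MT1H and MT1M depended on which vector array was kept. MT2A, MT1X and MT1F were lower with H2BK120R in either case. Without vector replicate 1, 7 of the 7 members were lower with H2BK120R, by 0.06 to 0.48 on the log2 scale, with a median of -0.27, while 48.4% of all probe sets were lower. Without vector replicate 2 the median was 0.29, with 4 members on the higher side and 3 on the lower, while 49.1% of all probe sets were higher. MT1G was at -0.38 without replicate 1 and at 0.68 without replicate 2. MT2A was the steadiest member, at -0.27 and -0.24. None of the 7 passed the adjusted limma threshold in either fit, which take the spread of the lone array from the group that kept both.

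**Figure D4:**
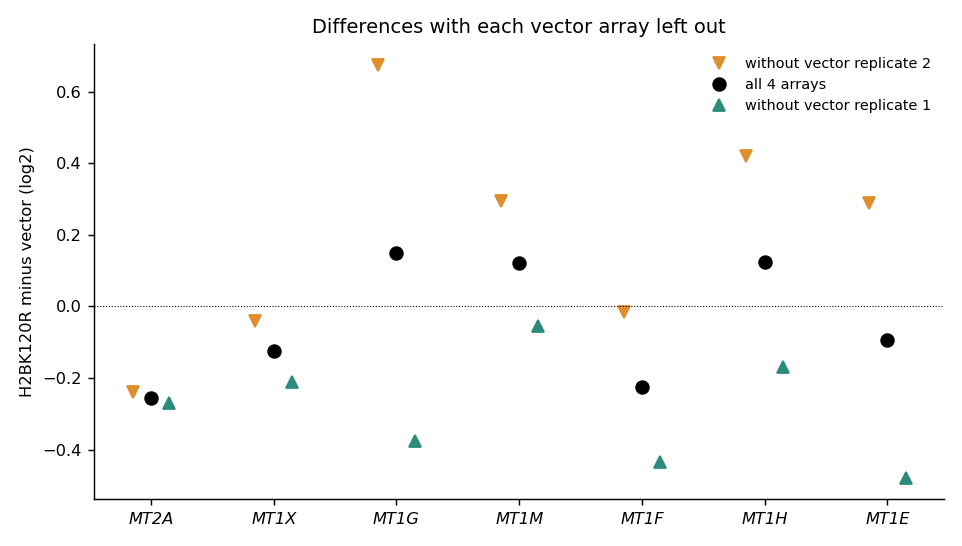
Difference between H2BK120R and vector in log2 units for each member with all 4 arrays (circles), without vector replicate 2 (downward triangles) and without vector replicate 1 (upward triangles). MT2A stays near -0.25 in each, while MT1G moves between 0.68 and -0.38.

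Of 13 other metallothionein genes and pseudogenes listed, 6 had a probe set, and 0 passed in limma, with 0 at an unadjusted p under 0.05 as well. Of these, 5 were on the higher side with H2BK120R and 1 on the lower. MT1L, annotated by RefSeq as a transcribed pseudogene, was at 13.03 and 13.28 with H2BK120R and 12.58 and 13.31 with vector. MT1B, a coding member of the cluster, was at 13.50 and 13.38 with H2BK120R and 13.35 and 13.75 with vector. Both repeat the arrangement of MT1G, with the mutant arrays between the vector arrays. They are near-copies of the other MT1 genes, so their signal may come in part from those transcripts, and which one gave it cannot be told from the deposited values. The same doubt holds for every MT1 member.

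MT3, the brain form known as growth inhibitory factor, was at 6.36 and 5.58 with H2BK120R and 5.78 and 5.75 with vector, and was the 1 metallothionein of 13 in which vector replicate 2 was not above replicate 1. MT4, the form of stratified epithelium, MT1IP, a pseudogene, and MT1HL1, a copy on chromosome 1, stayed within the range of the silent genes. MT1HL1 was at 4.37 and 4.59 with H2BK120R and 4.03 and 4.30 with vector, without overlap on the higher side, which held 18.6% of all probe sets. On the lower side, where MT2A and MT1X lay, the share was 17.9%.

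Of the genes listed for zinc sensing and zinc transport, none passed in limma. MTF1, the zinc sensor, was at 11.24 and 11.42 with H2BK120R and 11.22 and 11.03 with vector. The groups did not overlap, by 0.02 on the log2 scale, and the difference was 0.21 ± 0.16 (SE), with a limma adjusted p of 0.821. Of 6 measured genes in the list that holds MTF1, 4 were higher and 2 lower. Besides MTF1 the smallest p-values were those of PHF19 (0.20 ± 0.19), ZNF143 (0.16 ± 0.16) and ZNF658 (0.14 ± 0.30, SE throughout). A place in this list does not show that a gene regulates the zinc response. ZNF658, a zinc finger protein of the zinc response, was at 7.58 and 7.97 with H2BK120R and 7.23 and 8.05 with vector, again with the mutant arrays between the vector arrays.

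SLC30A1 exports zinc from the cell and is itself a target of MTF1, like the metallothioneins. It was at 11.56 and 11.80 with H2BK120R and at 10.81 and 11.53 with vector. Both arrays with the mutant were above both vector arrays, opposite to MT2A and MT1X. The nearest arrays of the groups were only just apart, at 11.56 and 11.53, and vector replicate 1 was again the low one. The difference was 0.51 ± 0.22 (SE), or 42.4% higher, with a limma p of 0.0374 unadjusted and 0.745 adjusted. It was 0.15 without vector replicate 1 and 0.87 without vector replicate 2.

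The SLC30 family is known mainly for carrying zinc out of the cytosol. In it, 10 of 10 genes were measured, 6 on the higher side and 4 on the lower, with a median of 0.05. Besides SLC30A1, the smallest p-values were those of SLC30A2 (0.47 ± 0.35), SLC30A6 (0.12 ± 0.12) and SLC30A7 (0.13 ± 0.14), and SLC30A2 lay within the range of the silent genes. Over the SLC39 family, which carries zinc into the cytosol, 14 of 14 were measured, 9 on the higher side and 5 on the lower, with a median of 0.03. SLC39A4, the intestinal zinc importer, differed by 0.39 ± 0.20, and SLC39A10, SLC39A14 and SLC39A1 by 0.21 ± 0.12, 0.14 ± 0.12 and 0.19 ± 0.17 (SE). Each of the last 3 lay above vector without overlap, as did 18.6% of all probe sets, and 0 of the 24 transporters passed in limma, with SLC30A1 the 1 at an unadjusted p under 0.05. In vector, replicate 2 was above replicate 1 for 2 of the 10 SLC30 genes and 8 of the 14 SLC39 genes, against 7 of the 7 members. The members were not alone in this. The same order held for 8 of 10 oxidative and metal stress genes, 4 of 4 aldo-keto reductases and 4 of 5 epithelial markers. It held for 5 of 12 copper-handling, 4 of 8 iron-handling and 4 of 11 glucocorticoid genes.

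**Figure D5:**
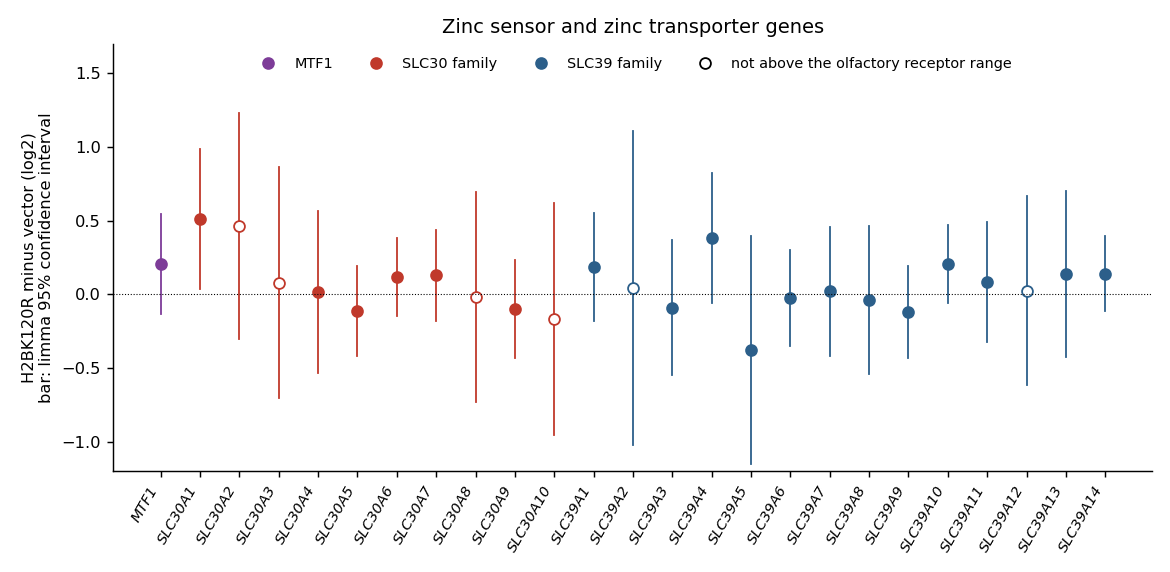
Difference between H2BK120R and vector in log2 units with limma's 95% confidence interval for MTF1, the 10 SLC30 and the 14 SLC39 zinc transporter genes; open points lie within the range of olfactory receptor genes in both groups. The interval of SLC30A1, around 0.51, is the only one that excludes 0, and it did not pass after adjustment over all probe sets.

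Among other metal and inducer pathways 0 genes passed in limma. Of the 12 copper, 8 iron, 11 glucocorticoid and 10 stress genes measured, 2 had an unadjusted limma p under 0.05. These were the iron genes PCBP1 and TFR2, and over all probe sets the share was 6.7%. The 12 measured copper-handling genes were split evenly, 6 to either side, around a median of 0.02. SOD1, the copper and zinc superoxide dismutase, was at 11.77 and 11.46 with H2BK120R and 11.85 and 11.96 with vector, a difference of -0.29 ± 0.15 (SE) with a limma adjusted p of 0.765. MEMO1, a copper-binding protein, differed by -0.38 ± 0.18, the copper exporter ATP7B by -0.47 ± 0.33 and the copper importer SLC31A1 by 0.20 ± 0.13. ATP7B averaged 4.865 with H2BK120R, within the range of the silent genes, and 5.335 with vector, just above it. Of 8 measured iron-handling genes, 6 lay on the lower side and 2 on the higher, and the median was -0.14. Over all probe sets 49.4% were lower. PCBP1, an iron chaperone, differed by -0.34 ± 0.14 and TFR2, transferrin receptor 2, by -0.61 ± 0.27 (SE). The ferrireductase STEAP3 differed by -0.25 ± 0.18 and the iron-sensing aconitase ACO1 by -0.15 ± 0.18 (SE). For TFRC, the other transferrin receptor measured, the groups overlapped.

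Glucocorticoids and oxidants are the other known inducers. NR3C1, the glucocorticoid receptor, and the genes it induces were measured in 11 of 13 cases, with 7 higher, 4 lower and a median of 0.06. NR3C1 itself was at 13.36 and 13.44 with H2BK120R and 13.39 and 13.24 with vector, and its ranges overlapped. KLF9, ANGPTL4, TSC22D3 and ZBTB16 had the smallest p-values, with differences of 0.45 ± 0.30, -0.45 ± 0.32, -0.33 ± 0.28 and 0.41 ± 0.35 (SE). With 1 array left out they ranged from 0.16 to 0.74 for KLF9, from -0.72 to -0.19 for ANGPTL4, from -0.54 to -0.12 for TSC22D3 and from 0.04 to 0.78 for ZBTB16. Of these, KLF9 and TSC22D3 lay above the range of the silent genes. Oxidative and metal stress genes were measured in 10 cases, 7 on the higher side and 3 on the lower (median 0.04). SLC7A11, the cystine importer that supplies cysteine, differed by 0.23 ± 0.11 and TXNRD1, a thioredoxin reductase, by 0.11 ± 0.10. SRXN1, a sulfiredoxin, differed by -0.22 ± 0.19 and the heat shock gene HSPA1A, which has a near-identical copy, by -0.13 ± 0.14 (SE). The smallest limma adjusted p over these inducer genes was 0.745.

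Genes that flank the cluster showed no common direction. Of 11 measured, 5 were higher and 6 lower with H2BK120R, with a median of -0.02 (the lowest limma adjusted p was 0.745). HERPUD1, an endoplasmic reticulum stress gene, differed by -0.33 ± 0.16, NUDT21, a cleavage factor subunit, by 0.23 ± 0.15, GNAO1 by -0.17 ± 0.29 and CETP by -0.30 ± 0.38 (SE), and CETP lay within the range of the silent genes. In vector, replicate 2 was above replicate 1 for 9 of the 11 neighbours, with a median gap of 0.14, against 0.42 for the 7 members. OGFOD1 and NUP93, coding genes on either side of the cluster, had gaps of 0.38 and 0.12.

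Other genes had nearly the same median profile over the arrays. Among 9291 other genes at or above the median level of the array, the 5 nearest to it by root mean square distance of the centred values over the 4 arrays were SMC5, RNPS1, PLOD1, SLC20A1 and RAB3B. Their distances were 0.01 to 0.02, and such small values follow from picking the nearest of 9291 genes. The members, not picked by distance, lay 0.07 (MT1H and MT1M) to 0.24 (MT1E) from their own median. These distances therefore do not show that other genes follow the profile more closely than the members. With 4 arrays such likeness describes the arrays only. SMC5, a subunit of the SMC5/6 complex, was at 8.94 and 9.07 with H2BK120R and 8.74 and 9.23 with vector.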

How the data were processed

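Total RNA of 4 samples was profiled on a whole-transcript array after extraction with a column kit, amplification and biotin labelling, per the labels' protocols. The deposited table holds 1 log2 value per probe set and array, normalized between arrays by the authors. The values run from 1.56 to 19.15, from which base 2 is inferred, and the medians of the arrays nearly coincide, from which between-array normalization is inferred. A wrong base would rescale every difference. The submitters' processing notes name MAS5, with its version, role, background correction and probe summary not given in the sources used here. No 2 arrays were copies, since at most 309 of 21448 values were identical in a pair.

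Gene names come from the platform annotation. It gave 1 symbol for 17709 probe sets, and the other 3739, with no symbol or several, were left unnamed here. All 17709 gene IDs matched the RefSeq table, with 0 symbols updated. The brightest probe set stood for a gene. The groups were compared in R 4.3.3 with limma 3.58.1 (eBayes, variance trend on), two-sided, on 2 residual and 8.95 prior degrees of freedom, and p-values were adjusted by Benjamini-Hochberg over all 21448 probe sets. For arrays, their number limits the precision. The members, the lists of genes and the naming rule (all metallothioneins, the 4 smallest p-values of each list, the 5 nearest profiles) were chosen with earlier results of these data known. The alternatives tried were other normalizations, filters and variance estimates, the replicate block and leaving out each array. The counts at an unadjusted p were added after the data were seen. Figures used Python 3.11.15 and matplotlib 3.10.9.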

Additional observations from a re-analysis of the deposited data

How the results depend on the processing

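Under every setting tried, arrays left out included, limma called 0 probe sets and 0 members at an adjusted p of 0.05, and the lowest adjusted p of any member was 0.425, for MT1G without vector replicate 2. The median difference of the members was -0.10 as reported, -0.05 after quantile normalization, which moved the median of all probe sets to -0.0012, and -0.11 with equal array medians, which moved it to -0.015. It lay between -0.27 and 0.29 with 1 array left out, and the value of 0.29, without vector replicate 2, was the only one farther from the reported median than the spread between replicates (SD 0.24). The count of members at an unadjusted p under 0.05 was 1, and between 0 and 1 with 1 array left out, where the 1 was MT1G without vector replicate 2, and 0 without the variance trend. The count of probe sets at that p was 1437, 903 with the dimmest 50% left out, where fewer were tested and 2 members dropped out, and between 495 and 2427 with 1 array left out (744 without H2BK120R replicate 1, 495 without H2BK120R replicate 2, 2427 without vector replicate 2). With the replicate block it was 1846, no call changed and the members' median stayed at -0.10. The replicate numbers share only a number: deviations of same-numbered arrays correlated at 0.141 over all probe sets, and 2 pairs do not establish a pairing.

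Of 683 values of 58 named genes under the alternatives, 35 had the opposite sign and none passed. With 1 array left out, these genes lay on both sides of 0: MT1E between -0.48 and 0.29, MT1G between -0.38 and 0.68, MT1H between -0.17 and 0.42, MT1M between -0.055 and 0.30, MT1B between -0.31 and 0.09, MT1L between -0.16 and 0.58 and MT1IP between -0.075 and 0.18. Among the rest, the values were MT3 between -0.19 and 0.60, MT4 between -0.24 and 0.38, PHF19 between -0.02 and 0.41, ZNF658 between -0.28 and 0.55, ACO1 between -0.34 and 0.04, HSPA1A between -0.26 and 0.005 and CETP between -0.89 and 0.29. The others were SMC5 between -0.23 and 0.27, RNPS1 between -0.21 and 0.28, PLOD1 between -0.22 and 0.26, SLC20A1 between -0.19 and 0.24, RAB3B between -0.24 and 0.23, OGFOD1 between -0.18 and 0.21 and NUP93 between -0.11 and 0.08. Leaving out 1 array moved the value by over 1.5 times for 51 of the 58 genes. MT2A, SLC30A6, SLC39A10, SLC39A14, MEMO1, TFR2 and CDH1 were the other 7. After quantile normalization the values of opposite sign were RNPS1 at -0.0131, PLOD1 at -0.025, KRT8 at -0.0062 and OGFOD1 at -0.035. Apart from the fewer arrays or probe sets, the cause was not tested. No member had several probe sets and the values were already log2, so averaging of probe sets and a pseudocount were not run.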
